A study of Mus musculus with 36 samples.

Results

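The 8 genes described here, Ddc, Gtsf1, Upp1, Mpped2, Ky, Rec8, Cpa1 and Npnt, are not among the usual chamber markers and stood out in the embryonic mouse heart for a large ventricular excess or for a large change with time in the ventricles. They were chosen on the same array values that are reported here, so every comparison of ventricle with atrium and every ventricular time course of these 8 genes is a description without a test. All probe sets annotated to one of the 8 symbols alone were taken, which gave 16 of the 45037 non-control probe sets on the array, or 8 of 18193 gene symbols with a probe set of their own. Of the 16, 14 passed the filter on low values (3 or more arrays with an intensity over 171.8, the median of the whole table), among 27256 probe sets that passed it; the second probe set of Ky (1422081_at) and the fifth of Npnt (1421429_a_at) did not pass.

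The series is a set of 36 Affymetrix arrays of C57BL/6 embryos, with no mutant or treated group, in which heart septation and maturation were followed by day. There were 12 groups of 3 arrays. Ventricles (both ventricles together) and atria (the atrial chamber) were profiled on 5 embryonic days, at first on each day between E12.5 and E14.5 and then once more at E16.5 and finally E18.5. The groups of E11.5 and E10.5 are called heart region here, because the labels give whole heart as the source, while their description speaks of the middle part of the embryo with the heart in it, after the ends had been cut off. The titles of the E16.5 arrays give that day, and their free-text description gives the preceding one. Nothing in the labels tells whether the 3 arrays of a group came from separate embryos, litters or pools, so every SD and p-value below measures the spread between these arrays, which may be technical.

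The enzymes among the 8 come from several branches of metabolism. Ddc, aromatic L-amino acid decarboxylase, makes dopamine from L-DOPA and serotonin from 5-hydroxytryptophan, and lies in an imprinted neighbourhood with Grb10; in the mouse a heart transcript of Ddc is known to be expressed from the paternal copy. Upp1, uridine phosphorylase, splits uridine into uracil and ribose 1-phosphate in pyrimidine salvage. Mpped2 is a metallophosphoesterase best known from the brain, and Cpa1 is the digestive carboxypeptidase A of pancreatic acinar cells. Gtsf1 is a zinc finger protein needed in the male germ line, where it assists PIWI proteins, and Rec8 is the kleisin subunit of the meiotic cohesin ring, which holds sister chromatids together in germ cells. Ky, the kyphoscoliosis peptidase, is a Z-disc protein of striated muscle, and Npnt, nephronectin, is a basement membrane ligand of integrin alpha-8 beta-1 known for its part in kidney development. In the developing heart, ventricles form the thick pumping wall and atria the thin receiving chambers, and the chambers use different sets of muscle genes.

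The genes lie apart in the genome except for Ddc and Upp1, which share a chromosome. On the GRCm38.p6 assembly, Ddc spans chr11:11814101-11898144 on the minus strand between Fignl1 and Grb10, and Upp1 spans chr11:9118008-9136170 on the plus strand. Mpped2 spans chr2:106693181-106868361 on the plus strand, Ky chr9:102505755-102546247 on the plus strand and Gtsf1 chr15:103402458-103430445 on the minus strand. Rec8 spans chr14:55618002-55625395 on the plus strand, Cpa1 chr6:30639218-30645361 on the plus strand next to Cpa5, and Npnt chr3:132881745-132950291 on the minus strand.

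Promoter windows of 300 bases, from 250 bases before a transcript start to 50 bases after it, were found for all 8 genes in RefSeq (GRCm38.p6). The windows of the first listed start of Ddc, Upp1, Ky and Gtsf1 are printed because Ddc, Upp1 and Ky followed each other closely over the groups and Gtsf1 was the gene that rose between the 2 earliest days, as given below. They are written 5′ to 3′ on the strand of the gene, and capitals mark each match, on either strand, to a set of short motifs. The motifs were AAGTG for NKX2-5, GGCGGG for the Sp factors, TATAAA for the TATA box, and TCACACC for T-box factors. The GATA factors were searched by AGATAA and, as a second form, by TGATAA. Further motifs were CTATTTA or CTAAAAA for the core of MEF2 sites, CCATATT for one side of an SRF box, and the E-box letters CACGTG. The Ddc window lies at chr11:11898095-11898394 (minus strand), that of Upp1 at chr11:9117758-9118057 (plus strand), that of Ky at chr9:102505888-102506187 (plus strand) and that of Gtsf1 at chr15:103430378-103430677 (minus strand).
Ddc: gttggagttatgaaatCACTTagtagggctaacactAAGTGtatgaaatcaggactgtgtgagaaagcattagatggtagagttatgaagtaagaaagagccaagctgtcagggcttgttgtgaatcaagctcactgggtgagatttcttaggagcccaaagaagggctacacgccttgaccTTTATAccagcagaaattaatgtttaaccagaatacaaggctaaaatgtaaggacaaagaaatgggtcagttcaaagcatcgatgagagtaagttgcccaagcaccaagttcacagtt
Upp1: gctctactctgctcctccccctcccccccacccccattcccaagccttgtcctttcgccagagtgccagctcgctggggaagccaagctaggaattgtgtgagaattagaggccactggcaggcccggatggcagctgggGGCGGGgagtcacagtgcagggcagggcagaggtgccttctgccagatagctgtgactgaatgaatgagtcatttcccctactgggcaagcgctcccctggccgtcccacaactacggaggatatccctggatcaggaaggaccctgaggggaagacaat
Ky: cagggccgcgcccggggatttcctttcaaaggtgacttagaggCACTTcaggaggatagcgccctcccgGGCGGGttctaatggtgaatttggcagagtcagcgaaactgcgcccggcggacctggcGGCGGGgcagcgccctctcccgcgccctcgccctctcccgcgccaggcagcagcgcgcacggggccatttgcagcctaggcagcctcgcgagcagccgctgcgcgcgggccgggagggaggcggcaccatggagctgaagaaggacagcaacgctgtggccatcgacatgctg
Gtsf1: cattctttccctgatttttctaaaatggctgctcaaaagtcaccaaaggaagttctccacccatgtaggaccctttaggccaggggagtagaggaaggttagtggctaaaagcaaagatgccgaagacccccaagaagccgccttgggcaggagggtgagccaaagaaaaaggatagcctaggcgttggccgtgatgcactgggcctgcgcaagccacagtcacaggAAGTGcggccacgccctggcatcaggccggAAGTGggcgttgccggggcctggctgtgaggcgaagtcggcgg
The Ddc window held AAGTG 2 times, both more than 200 bases before the start, and TATAAA 1 time on the opposite strand. The Gtsf1 window held AAGTG 2 times, at 23 bases before the start and at 7 bases after it, and no other motif searched. The Upp1 window held GGCGGG 1 time, and the Ky window held GGCGGG 2 times and AAGTG 1 time. No printed match overlapped another.

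Over all 8 genes, AAGTG stood in the first window of 4 (Ddc, Gtsf1, Ky and Npnt), and 46.4% of the 32851 promoters in the table hold it. GGCGGG stood in 4 of 8 (Upp1, Mpped2, Ky and Npnt), against 35.3% of all promoters, and TATAAA in 1 of 8 (Ddc), against 13.6%. None of the 8 first windows held the GATA, T-box, MEF2, SRF or E-box letters, which are in 2.15% to 11.2% of all promoters. Later starts of the 8 genes were left out of these counts, while the shares over all promoters include every listed start. The window of the third listed start of Mpped2 held AGATAA and CTATTTA. The Ddc window had a GC content of 41.3%, below the median of 52.7% over all promoters, and those of Gtsf1, Upp1 and Ky had 57.7%, 60.7% and 69%. A match is a description of letters in these windows, and nothing about a factor's binding was measured.

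The chamber labels were checked against 14 ventricular and 14 atrial marker genes. In ventricle against atrium, 12 of the 14 ventricular markers were called higher and none lower (median log2 difference 1.90), and 12 of the 14 atrial markers were called lower and none higher (median -1.68), by limma at a Benjamini-Hochberg adjusted p below 0.05. The summed level of the ventricular markers was 85993 to 129759 in ventricles and 26606 to 97248 in atria, so that the highest atrial level lay within the ventricular range. In 5 of the 15 atrial arrays the mean centred log2 level of these markers was -0.41 to 0.47, against -1.81 to -1.10 in the other 10 atrial arrays and 0.72 to 1.04 in ventricles. These 5 were array 2 of E12.5, arrays 1 and 2 of E14.5, array 2 of E16.5 and array 1 of E18.5. Irx4, a transcription factor of the ventricles, read 433, 1281, 792, 356 and 492 in these 5 arrays and 14.3 to 137 in the other 10 atrial arrays. The same atrial E12.5 array and ventricular E16.5 array 2 had the highest liver marker levels, and array 3 of the atria had high lung markers on 3 days (E13.5, E16.5, E18.5). The mean chamber difference of each main probe set and the atrial tests are given below with and without the 5 arrays. Because the 5 were set apart by high ventricular markers, a larger difference and a smaller SE without them follow in part from that choice. They are no separate support for a ventricular excess, and only 1 atrial array is then left at E14.5. Over all tested probe sets, 42.4% were called between ventricle and atrium and 28.7% between ventricle E18.5 and E12.5, and nothing is read from the place of the 8 genes among them, since these contrasts chose them. In these bulk samples fewer cells of a type and less RNA per cell cannot be told apart.

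Ddc had the largest chamber difference of the 8. Its main probe set (1426215_at) read, in ventricles, 2565, 5107 and 2899.9 at E12.5, 5655, 4435 and 5016 at E13.5, 5477, 3916 and 5374 at E14.5, 5726, 6164 and 6213 at E16.5, and 5778, 6318 and 5688 at E18.5. In atria it read 869, 950 and 359 at E12.5, 360.3, 402 and 357 at E13.5, 2959.8, 3289.7 and 467 at E14.5, 536, 1643 and 430.1 at E16.5, and 2195, 398 and 416 at E18.5. Every ventricular array stood above every atrial array of the same day. Atrial arrays 1 and 2 of E14.5, both among the 5, reached the ventricular range of E12.5. Averaged over the 5 days, Ddc was 2.71 ± 0.24 higher on the log2 scale (SE of the limma fit), or 6.56-fold, in ventricles than in atria, and 3.40 ± 0.11 (10.5-fold) without the 5 atrial arrays. All fold changes here are on the scale of log2(intensity + 17), which understates the change of weak signals. By day the difference was smallest at E14.5 (1.54 ± 0.54), and it was 3.33 at that day without the 2 arrays concerned.

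The second Ddc probe set (1430591_at), with a mean chamber difference of 2.95 ± 0.27 log2 (3.28 ± 0.26 without the 5 arrays), differed with age in ventricles far more than the first. It read 1699, 1846 and 1850.3 in ventricles at E18.5 and 59, 379.6 and 74.7 at E12.5, a difference of 3.69 ± 0.61 log2, while the main probe set differed by 0.81 ± 0.54 between the same days. In atria it read 22.5 to 52.2 on the 10 arrays with low ventricular markers. On atrial E18.5 array 1, one of the 5, it read 495. Over the 12 groups the 2 probe sets had a Pearson correlation of 0.825, so they tracked each other only in part, and the files do not say which transcripts each one detects. In the order of the main probe set's group means the top was ventricle E16.5 (6034 ± 268, SD, n = 3) with ventricle E18.5 (5928 ± 341), which overlapped, and the bottom was atrium E13.5 (373 ± 25.0). The heart region lay below every ventricular array and above the 10 atrial arrays with low ventricular markers, with 1735, 2116 and 1639.5 at E11.5 and 1359, 1366 and 1317 at E10.5.

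Upp1 (1448562_at) followed nearly the same pattern at a lower signal. In ventricles it read 615, 766 and 717 at E12.5, 656, 801 and 849 at E13.5, 734, 713 and 724 at E14.5, 727, 645 and 1034 at E16.5, and 1185, 1458 and 1117 at E18.5. The atrial arrays gave 123, 151 and 67.6 at E12.5, 85.3, 96.4 and 80.3 at E13.5, 650.3, 437 and 125 at E14.5, 100.4, 296 and 80.9 at E16.5, and 571, 131 and 121 at E18.5. No atrial array reached the ventricular arrays of its day. The mean chamber difference was 2.27 ± 0.19 log2 (4.82-fold), and 2.81 ± 0.087 (7.01-fold) without the 5 atrial arrays. Ventricle E18.5 (1253 ± 181) stood apart at the top of the order, while the ventricular means of E12.5 to E16.5, 699 to 802, overlapped. The heart region held 374, 340.2 and 357 at E11.5 and 207, 220.3 and 199 at E10.5.

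Gtsf1 (1441836_x_at) was high early and lower later in the ventricles. It read, in ventricles, 4377, 3687 and 4892 at E12.5, 3582, 4339.7 and 3925 at E13.5, 2156, 4388 and 3971 at E14.5, 1983, 2506 and 2029 at E16.5, and 949, 1249 and 1013 at E18.5. The atria gave 228, 920.3 and 343 at E12.5, 321, 498 and 418 at E13.5, 2159, 1812 and 479 at E14.5, 296, 836 and 359.5 at E16.5, and 333, 437 and 377 at E18.5. All 3 ventricular arrays of E18.5 lay below all 3 of E12.5, a difference of -1.995 ± 0.41 log2, and the chamber difference was 1.44 at E18.5 and 3.30 at E12.5. The groups touched once, at E14.5, since ventricular array 1 read 2156 and atrial array 1, one of the 5, read 2159. The mean chamber difference was 2.32 ± 0.18 log2 (5.01-fold), and 2.77 ± 0.11 without the 5 arrays. The name of this probe set ends in x, which on this array type marks probes that may also bind other transcripts. The second probe set (1452967_at), with no such mark, gave 0.64 ± 0.14 for the same difference (0.81 ± 0.14 without the 5 arrays) and -0.72 ± 0.30 between ventricle E18.5 and E12.5, in the same directions and smaller, and its levels had a correlation of 0.836 with the first over the 12 groups.

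Mpped2 was high in the heart region and in ventricles and low in atria. Its main probe set (1431751_a_at) read, in ventricles, 2080.1, 1579 and 2326 at E12.5, 1368, 1819.9 and 1496 at E13.5, 1015, 1738 and 1556 at E14.5, 917, 1053 and 889 at E16.5, and 847, 778 and 854 at E18.5. Atrial values were 239.6, 661 and 159.8 at E12.5, 214, 203 and 254 at E13.5, 1259, 652 and 391 at E14.5, 110, 377 and 146 at E16.5, and 243, 137 and 156 at E18.5. In the heart region it read 1851, 1796 and 2131 at E11.5 and 2303, 2507 and 2660.1 at E10.5. The E10.5 heart region was the highest of all 12 groups (2490.0 ± 179), overlapping ventricle E12.5 (1995 ± 381). Ventricles of E18.5 lay below those of E12.5 in all 3 arrays (-1.24 ± 0.37 log2), and the mean chamber difference was 2.16 ± 0.16 (4.47-fold), or 2.57 ± 0.089 without the 5 atrial arrays. The second probe set (1435285_at) gave 2.61 ± 0.20 for the chambers (3.10 ± 0.13 without the 5 arrays) and -1.26 ± 0.45 for the ventricular days, with a correlation of 0.996 with the first. At E14.5 array 1 of the atria, one of the 5, was above ventricular array 1, so the groups overlapped that day.

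Ky (1440435_at), the muscle protein, was a weak signal that passed the filter through the ventricles alone. In ventricles it read 139, 219 and 80.1 at E12.5, 348, 207 and 278 at E13.5, 478, 157 and 244 at E14.5, 334, 306 and 282 at E16.5, and 250.1, 282 and 251 at E18.5. Atrial values were 15.4, 21 and 43.7 at E12.5, 83, 26 and 43.1 at E13.5, 166, 146 and 28.8 at E14.5, 14.5, 127 and 14.5 at E16.5, and 142, 62 and 122 at E18.5. The chambers were apart on 4 days and overlapped at E14.5, where atrial array 1, among the 5, stood above ventricular array 2. The mean chamber difference was 1.84 ± 0.23 log2 (3.59-fold), and 2.27 ± 0.21 without the 5 atrial arrays. Ventricle E12.5 (146 ± 69.6) had the lowest ventricular mean, though its highest array reached into the ranges of E13.5 and E14.5, and the means of the later days, 261 to 307, overlapped. The heart region read 43.2, 76.4 and 38 at E11.5 and 53.5, 33.3 and 11 at E10.5, below every ventricular array. The second Ky probe set, below the filter on all arrays, read 14.4 to 107 in ventricles and 4.30 to 44.8 in atria.

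**Figure D1:**
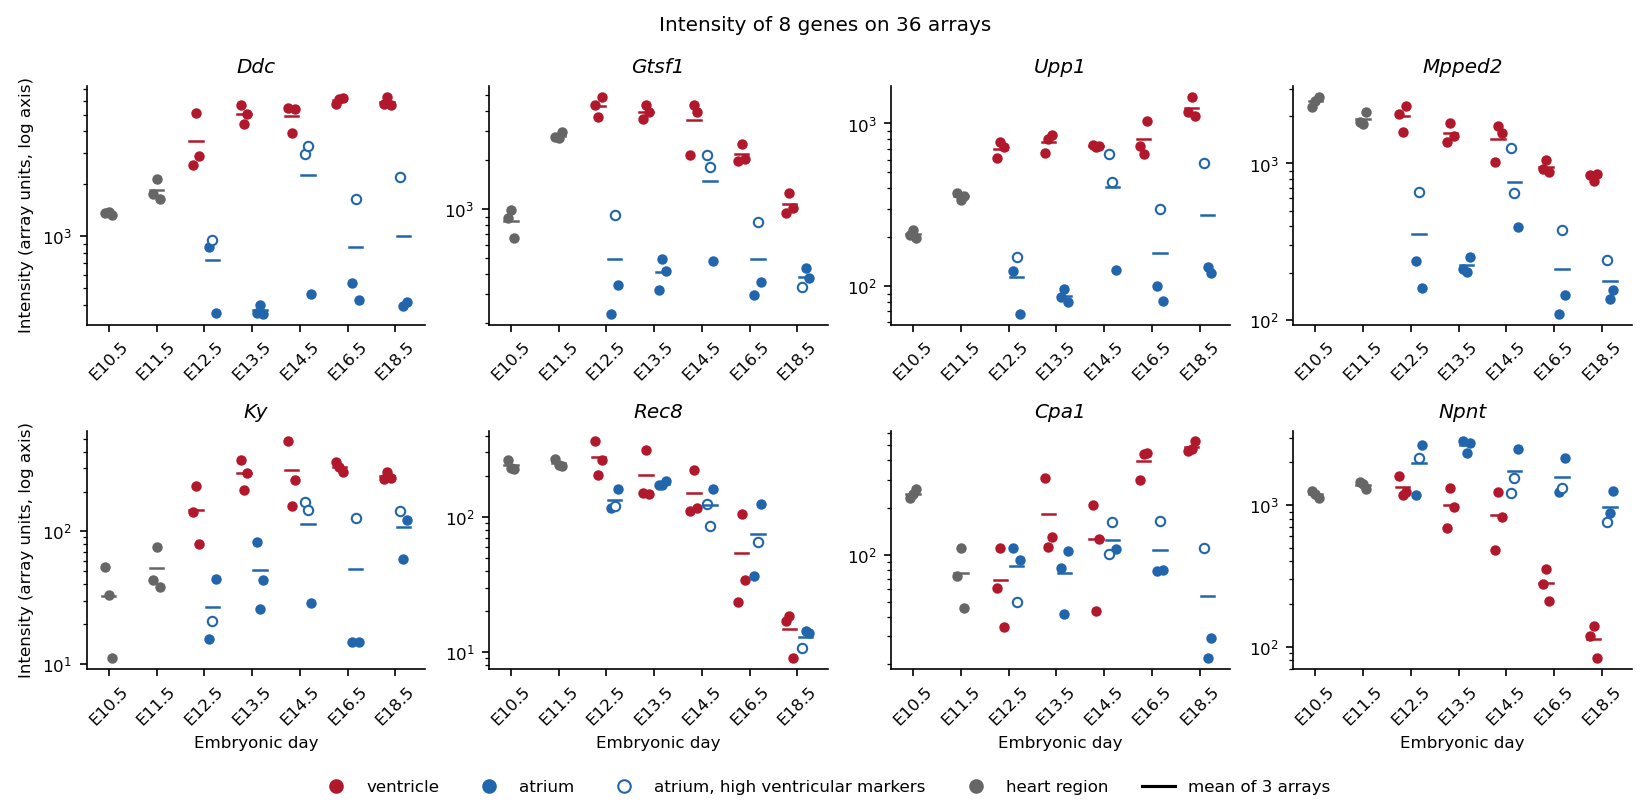
Intensity (array units, log axis) of the main probe set of each gene on all 36 arrays by embryonic day, with ventricles (red) left of atria (blue), heart region arrays in grey and lines at the mean of 3 arrays. Open circles are the 5 atrial arrays with high ventricular markers, which hold the highest atrial values of Upp1 (151 to 650, against 67.6 to 131 in the other atrial arrays).

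Rec8 and Npnt went against the description as genes enriched in ventricles, and Cpa1 met it on some days only. Rec8 (1419147_at) showed no clear chamber excess on average. In ventricles it read 362, 203 and 262 at E12.5, 152, 313 and 149 at E13.5, 111, 222 and 117 at E14.5, 23.4, 105 and 34.2 at E16.5, and 17, 18.6 and 9 at E18.5. The atria gave 116, 121 and 162 at E12.5, 172, 171 and 186 at E13.5, 125, 85.3 and 160.2 at E14.5, 36.6, 64.8 and 124 at E16.5, and 10.8, 14.3 and 13.9 at E18.5. The chambers overlapped on every day but E12.5, and the mean difference was 0.19 ± 0.15 log2, or 0.085 ± 0.19 without the 5 arrays. Its pattern was one of time, with 14.9 ± 5.14 in ventricles at E18.5 against 276 ± 80.1 at E12.5, a difference of -3.18 ± 0.34 log2. The erythroid markers fell in the same comparison, with 7 of 9 measured called lower against 16.9% of all genes. Their sums were 1841 to 2087 at E18.5 against 25679 to 68791 at E12.5, and their part in the Rec8 difference was not tested. At E18.5 all 6 arrays read 9 to 18.6, at the lower end of the array's signals, where the size of a fold depends on the pseudocount: the same difference was -4.14 with a pseudocount of 1 and -2.03 with 68. In the heart region Rec8 read 269.6, 242 and 239 at E11.5 and 265, 232 and 228 at E10.5, beside 149 to 362 in ventricles at E12.5 and E13.5.

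Cpa1 (1428062_at) was higher in ventricles on 3 of the 5 days, and most of all near birth. In ventricles it read 60.7, 111 and 34.4 at E12.5, 308, 112 and 129 at E13.5, 208, 43.8 and 126 at E14.5, 302, 442 and 447 at E16.5, and 458, 475 and 529 at E18.5. The atrial arrays gave 109.8, 49.5 and 92.5 at E12.5, 82.4, 41.9 and 105 at E13.5, 101, 161 and 108 at E14.5, 78.3, 164 and 79.2 at E16.5, and 111, 21.7 and 29.3 at E18.5. The chambers did not overlap on the days E13.5, E16.5 or E18.5, with differences of 1.03 ± 0.44, 1.78 ± 0.44 and 3.04 ± 0.44 log2. At E12.5 and E14.5 they overlapped, with -0.29 ± 0.44 and -0.14 ± 0.44. The mean over the 5 days was 1.08 ± 0.20 log2, and 1.23 ± 0.21 without the 5 atrial arrays, when E18.5 had a difference of 3.57, E16.5 one of 2.09 and E12.5 one of -0.56. Ventricle E18.5 (487 ± 37.3) and E16.5 (397 ± 82.2) headed the order of groups and did not overlap each other or the E10.5 heart region (244 ± 16.2) in the third place.

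Npnt was higher in atria than in ventricles. Its main probe set (1452106_at) read, in ventricles, 1603, 1176 and 1227 at E12.5, 689.6, 1326 and 966 at E13.5, 480.4, 1238 and 827 at E14.5, 277, 355 and 212 at E16.5, and 118, 140.4 and 82.7 at E18.5. In atria it read 1171, 2150.1 and 2650.4 at E12.5, 2815, 2345 and 2763 at E13.5, 1213, 1553 and 2488 at E14.5, 1238, 1311 and 2160.1 at E16.5, and 765, 881 and 1262 at E18.5. The chambers overlapped at E12.5 and E14.5 and were apart on the other days. The mean difference, ventricle minus atrium, was -1.66 ± 0.13 log2, and -1.81 ± 0.15 without the 5 atrial arrays. The ventricular level at E18.5 was 114 ± 29.1, against 1335 ± 233 at E12.5, a difference of -3.38 ± 0.30 log2. Probe set 1452107_s_at, whose ending marks probes shared by several transcripts, gave -1.52 ± 0.13 and -2.86 ± 0.30 for the 2 comparisons. The remaining 2 that passed the filter, 1426560_a_at and 1426561_a_at, gave -0.35 ± 0.11 and -0.50 ± 0.11 for the chambers, in the same direction and weaker, though the first was 0.13 ± 0.24 at E14.5. Between ventricle E18.5 and E12.5 these 2 differed by -1.05 ± 0.24 and -0.98 ± 0.24. In the heart region the main probe set read 1446, 1409 and 1309 at E11.5 and 1256, 1198 and 1117 at E10.5. Epicardial markers were also lower in ventricles, with 11 of 12 called lower and none higher, and a summed level of 7303 to 11565 in ventricles against 11909 to 20478 in atria. Of the fibroblast and matrix markers 10 of 13 were called lower and none higher, with sums of 27124 to 58700.3 in ventricles and 32087 to 87564 in atria. Their part in the Npnt difference was not tested. By the main probe set, the atrial arrays with high lung markers were the highest of E16.5 (2160.1) and of E18.5 (1262), but not of E13.5 (2763). Array 3 was also the highest of E12.5 (2650.4) and of E14.5 (2488), where its lung markers were not high. The other atrial arrays of E16.5 (1238 and 1311) and of E18.5 (765 and 881) still lay above every ventricular array of their day. Whether lung tissue added to these values was not tested.

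**Figure D2:**
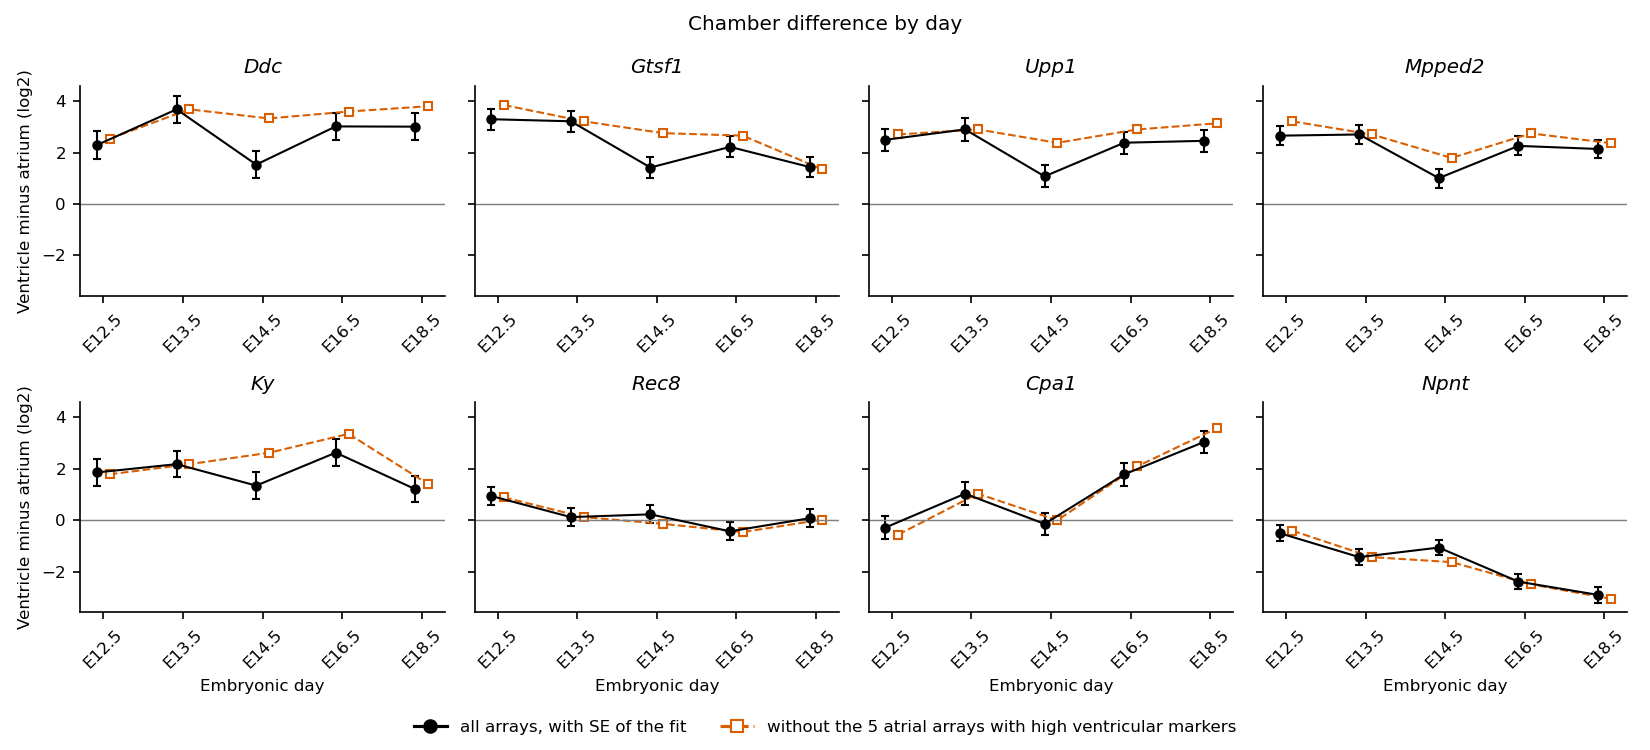
Difference between ventricle and atrium (log2, group means with the SE of the fit) by embryonic day for the main probe set of each gene, with all arrays, 3 per group (black circles), and without the 5 atrial arrays with high ventricular markers (orange squares), which leaves 1 atrial array at E14.5 and 2 or 3 on the other days. With all arrays, Ddc, Gtsf1, Upp1, Mpped2 and Ky lie above 0 on each of the 5 days and Npnt below 0, Rec8 lies between -0.43 and 0.23 after E12.5, and Cpa1 reaches 3.04 at E18.5.

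The atrial level of the ventricular genes depended on which atrial array was read. Ddc stood at 2565 to 6318 in ventricles (median 5477), at 950 to 3289.7 in the 5 atrial arrays with high ventricular markers (median 2195) and at 357 to 869 in the other 10 (median 409). Mpped2 stood at 778 to 2326, 243 to 1259 and 110 to 391 in the same 3 sets. The 5 arrays held the highest 5 atrial values of Ddc and Upp1. For Gtsf1 they held 4 of the highest values, and atrial E18.5 array 1 read 333, within the range of the other 10. For Npnt the order was the opposite, with 82.7 to 1603 in ventricles, 765 to 2150.1 in the 5 arrays and 881 to 2815 in the other 10. Whether ventricular tissue in the atrial samples gave these values was not tested.

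**Figure D3:**
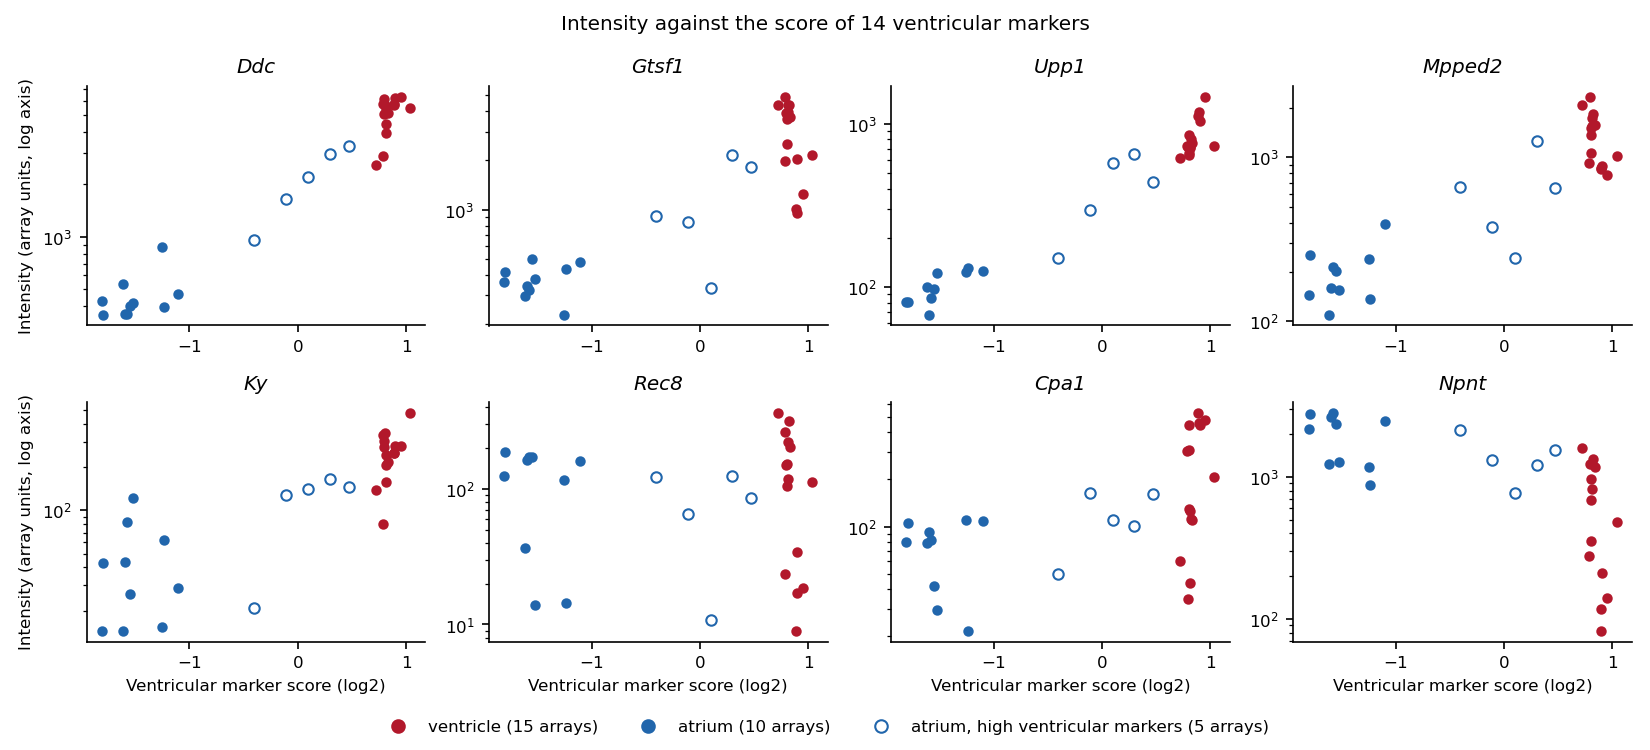
Intensity of the main probe set of each gene (array units, log axis) against the mean centred log2 level of 14 ventricular markers on the 15 ventricular and 15 atrial arrays. The 5 open circles lie between the 2 chambers on the marker axis (-0.41 to 0.47) and hold the highest atrial intensities of Ddc (950 to 3290) and Upp1 (151 to 650).

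Change with time in the atrial arrays was tested, since it was not a criterion of the choice. Atrial levels still entered the choice through the ventricular excess, so these tests are not fully independent of it. In atrium E18.5 against E12.5, limma called 5 of the 14 probe sets at an adjusted p below 0.05, against 24.3% of all 27256 probe sets. Rec8 fell, with 10.8, 14.3 and 13.9 at E18.5 and 116, 121 and 162 at E12.5 (-2.31 ± 0.34 log2, limma adjusted p = 2.4e-05). This call held in every alternative setting run for it, with each single array left out included. The Rec8 values of both days lay below the filter value of 171.8, those of E18.5 at the lower end of the array's signals. The size of the fall is therefore rough, from -3.25 to -1.30 over these settings. The erythroid markers fell in the same comparison, with 9 of 9 measured called lower against 12.8% of all genes. Their summed level was 3911 to 4500 at E18.5 against 41197 to 85886 at E12.5, and their part in the Rec8 change was not tested. Ky rose (142, 62 and 122 at E18.5 and 15.4, 21 and 43.7 at E12.5, 1.52 ± 0.52, limma adjusted p = 0.0308), and the 2 groups did not overlap. All atrial values of Ky (14.5 to 166) lay below the filter value of 171.8, which it passed through the ventricles alone. Npnt fell by 2 of its 4 tested probe sets (-0.98 ± 0.30, limma adjusted p = 0.0172, and -0.87 ± 0.30, adjusted p = 0.0321). The main probe set read 765, 881 and 1262 at E18.5 and 1171, 2150.1 and 2650.4 at E12.5, so array 3 of E18.5 stood above array 1 of E12.5. Mpped2 fell by 1 of 2 probe sets, 1435285_at (-1.21 ± 0.45, limma adjusted p = 0.0488), while the other gave -0.72 ± 0.37 (adjusted p = 0.161).

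The calls for Ky, Npnt and Mpped2 did not hold when single arrays were left out. That of Ky ended without E12.5 array 1 or 2 or E18.5 array 1 or 3 (limma adjusted p up to 0.132), and both of Npnt ended without E12.5 array 2 or 3 or E18.5 array 1 or 2 (adjusted p up to 0.127). That of Mpped2 ended without E12.5 array 1 or 2 or E18.5 array 2 or 3, and its value was -0.58 without E12.5 array 2 (limma adjusted p = 0.39). Without the 5 atrial arrays 3 probe sets were called, namely Rec8 (-2.31, limma adjusted p = 0.00116), Mpped2 1435285_at (-0.98, adjusted p = 0.0323) and Cpa1, which fell (-1.48, adjusted p = 0.0359, against -0.67 and 0.292 with all arrays). Ky then gave 1.24 (limma adjusted p = 0.0817), Npnt 1452106_at -0.73 (adjusted p = 0.17) and Npnt 1452107_s_at -0.68 (adjusted p = 0.231). Cpa1 passed the filter through ventricular and E10.5 arrays alone. Its atrial values (21.7 to 164) all lay below the filter value of 171.8, so its atrial change is one between weak signals. Without the 2 arrays with high liver markers, which leaves out atrial E12.5 array 2, Rec8 alone was called. Ddc, Gtsf1 and Upp1 did not pass, with 0.10 ± 0.54 (limma adjusted p = 0.919), -0.13 ± 0.41 (adjusted p = 0.85) and 0.86 ± 0.43 (adjusted p = 0.152). The ventricular values for the same pair of days, which are descriptions, were 0.81 ± 0.54 for Ddc, -1.995 ± 0.41 for Gtsf1 and 0.82 ± 0.43 for Upp1. The ventricular minus the atrial change was -1.86 ± 0.57 for Gtsf1, 3.33 ± 0.63 for Cpa1 and -2.40 ± 0.43, -1.99 ± 0.42, -0.45 ± 0.34 and -0.40 ± 0.34 for the 4 Npnt probe sets, again as descriptions with all arrays, where 3.78% of all probe sets were called for such a difference (1.12% higher and 2.66% lower).

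An F test over the 5 atrial days asked whether the level differed between any of them, and limma called 7 of the 14 probe sets, against 17.4% of all. Rec8 passed (limma adjusted p = 2.17e-05), as did both probe sets of Mpped2 (0.00203 and 0.000599), 2 of Npnt (0.011 and 0.028), Gtsf1 1441836_x_at (0.0131) and Upp1 (0.021). Ddc (limma adjusted p = 0.0593 and 0.413), Ky (0.0956) and Cpa1 (0.284) did not. Atria of E14.5, which hold 2 of the 5 arrays, had the highest atrial mean of Gtsf1, Upp1 and Mpped2. Without the 5 arrays Rec8 and the 2 Mpped2 probe sets were called and Gtsf1 (limma adjusted p = 0.314), Upp1 (adjusted p = 0.301) and Npnt (adjusted p = 0.068 and 0.204) were not. Leaving out E14.5 array 1 or array 2 alone ended the call of Gtsf1 (limma adjusted p = 0.181 and 0.128) and of Upp1 (0.11 and 0.0774). Leaving out E18.5 array 1 ended the calls of both Npnt probe sets (limma adjusted p = 0.0635 and 0.116), and the second was also lost without E13.5 array 1 or 3 or E18.5 array 2.

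The step from E10.5 to E11.5 lies outside the chamber groups on which the genes were chosen. In E11.5 against E10.5, limma called 2 of the 14 probe sets, against 1.16% of all (0.928% higher), and both were Gtsf1. Gtsf1 1441836_x_at read 2760.4, 2731 and 2959 at E11.5 and 879, 984 and 666 at E10.5, a rise of 1.74 ± 0.41 log2 (3.34-fold, limma adjusted p = 0.0246). Its second probe set read 156, 183 and 184 at E11.5 and 72.7, 81.7 and 37 at E10.5 (1.29 ± 0.30, limma adjusted p = 0.0264). All E10.5 values of this second probe set and the 156 of E11.5 lay below the filter value, and 183 and 184 just above it. The size of its rise, between weak signals, is therefore rough. The 2 days did not overlap in either probe set. Leaving out any 1 of the 6 arrays ended the call of the first probe set (lowest value 1.58, adjusted p up to 0.192), and leaving out E10.5 array 3 or any E11.5 array ended that of the second (lowest value 1.02, adjusted p up to 0.268). With each array centred on its median neither was called (1.68, limma adjusted p = 0.0607, and 1.23, adjusted p = 0.0812).

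Cpa1 went the other way without passing, with 73.3, 111 and 45.4 at E11.5 and 229, 243 and 261 at E10.5 (-1.54 ± 0.44 log2, limma adjusted p = 0.0864), and the 2 days did not overlap. With the spread taken from the 6 heart region arrays alone, 6 probe sets were called: both of Gtsf1, Cpa1 (limma adjusted p = 0.00837), Upp1 (0.73, adjusted p = 0.00761), Ddc 1426215_at (0.43, adjusted p = 0.0218) and Mpped2 1431751_a_at (-0.37, adjusted p = 0.0228). In the fit over all arrays the last 3 had adjusted p-values of 0.538, 0.838 and 0.774. Rec8 (0.047 ± 0.34), Ky (0.55 ± 0.52) and the Npnt probe sets (-0.10 to 0.22) did not pass in either fit. Of the other cell markers, 5 of 13 fibroblast and 3 of 11 macrophage genes were called higher at E11.5 and none lower, beside 1.24% and 0.27% of all genes. The fibroblast markers summed to 31101 to 42455 at E11.5 against 21628 to 23642 at E10.5, and the macrophage markers to 2819 to 3874 and 1781 to 2076. Their part in the Gtsf1 rise was not tested, and none of the 14 ventricular markers was called in that comparison.

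**Figure D4:**
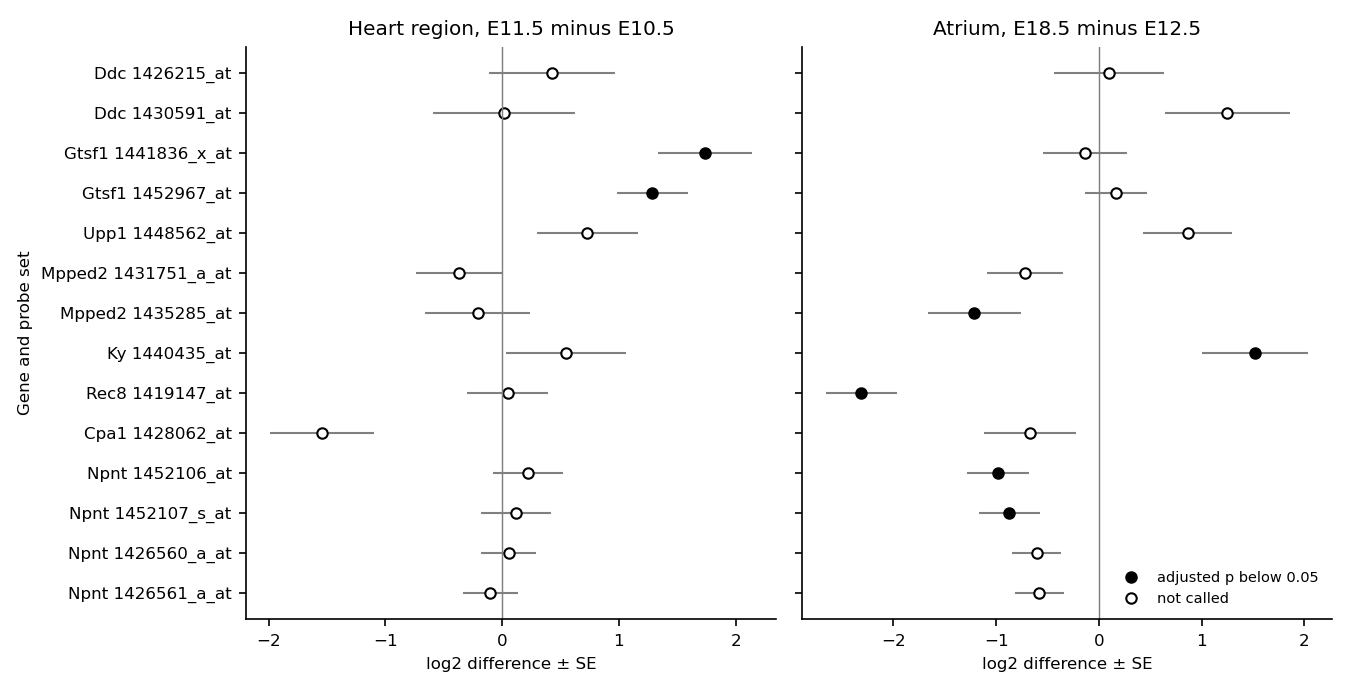
Log2 difference with its SE for the 14 tested probe sets, E11.5 minus E10.5 in the heart region (left) and E18.5 minus E12.5 in atria (right). Neither comparison was a criterion of the choice, though atrial levels entered it through the ventricular excess. Filled points had a limma adjusted p below 0.05: both Gtsf1 probe sets at left, and Rec8 (-2.31), Ky, 2 of Npnt and 1 of Mpped2 at right. Ky, Cpa1 and Gtsf1 1452967_at lay below the filter value on every atrial array.

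The 8 genes did not share 1 pattern. Over the 12 group means the Pearson correlation of log2 levels was 0.975 between Ddc and Upp1, 0.890 between Upp1 and Ky, 0.857 between Ddc and Ky and 0.823 between Ddc and Gtsf1. Npnt had -0.728 against Ddc, -0.759 against Upp1 and -0.789 against Cpa1, and -0.236 against Mpped2. Mpped2 and Ky, both higher in ventricles, had a correlation of 0.345. These are descriptions over groups that share arrays and the chamber contrast on which the genes were chosen.

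Among the 3499 genes whose group means spanned at least 1 log2 unit, the 3 most like each of the 8 were named by their Pearson correlation over the 12 group means, as a description. For Ddc they were Acsl3 (0.981), Kcne1 (0.976), a potassium channel subunit, and Upp1 itself. For Upp1 the nearest was B3galt5 (0.981), followed by Ddc and Mapre2 (0.970). Gtsf1 was nearest to the chemokines Cxcl12 (0.961) and Cx3cl1 (0.959) and to Mxra7 (0.953). Mpped2 was nearest to Slc16a3 (0.983), a lactate transporter, Pcbp4 (0.983) and Hand1 (0.976), a transcription factor of the left ventricle. Ky was nearest to Apold1 (0.983), Osbpl8 (0.977) and Habp4 (0.975), and Rec8 to Bid (0.972), Slitrk5 (0.972) and Nme4 (0.970). Npnt was nearest to Igfbp2 (0.987), Rcn1 (0.983) and Itm2c (0.981). Cpa1 had no close neighbour, with Kitl (0.850), Fsd2 (0.840) and Mrpl45 (0.832) at the top.

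The other genes of each pathway come from lists chosen with earlier results of these data known. Over all 12983 genes tested, 22.6% were called higher and 24% lower in ventricles than in atria, with a median difference of 0.0030 log2. Each chamber count below is read beside these shares. For E18.5 against E12.5, 14.7% rose and 16.9% fell in ventricles, and 14.6% rose and 12.8% fell in atria. Each count with time is read beside those.

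Of the 14 measured genes of catecholamine and serotonin metabolism other than Ddc, 4 were higher and 2 lower in ventricles (median difference 0.066). Gch1, which makes the cofactor of the hydroxylases that act before Ddc, was the largest (1.43 ± 0.16 log2, limma adjusted p = 1.36e-08), with levels of 301 to 538 in ventricles and 49.5 to 410.4 in atria. Spr, which acts in the same cofactor pathway, was higher by 0.43 ± 0.077 (adjusted p = 3.49e-05). Lower in ventricles were Slc18a2, the vesicular monoamine transporter (-0.70 ± 0.092, limma adjusted p = 3.09e-07), and Maoa, which breaks monoamines down (-0.60 ± 0.058, adjusted p = 1.31e-09). The hydroxylases that supply the substrates of Ddc did not pass the filter on low values: Th read 41.1 to 185 in ventricles and 59.8 to 175 in atria, Tph1 43.1 to 158 and 62.6 to 138, and Tph2 1.40 to 31.5 and 2.50 to 31.7. With time, Hdc, which makes histamine, rose in atria at E18.5 against E12.5 (2.99 ± 0.44, limma adjusted p = 1.98e-05), where 4 of the 14 rose and 1 fell. In ventricles 3 rose and 2 fell, and Slc18a2 fell (-1.04 ± 0.21, limma adjusted p = 0.000341). Of the 5 measured genes around Ddc, Grb10 was slightly higher (0.24 ± 0.057, limma adjusted p = 0.00114), and Cobl (-0.40 ± 0.12, adjusted p = 0.00876) and Vwc2 (-0.56 ± 0.22, adjusted p = 0.0439) were lower.

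Of 17 measured genes of pyrimidine salvage and breakdown other than Upp1, 4 were higher and 5 lower in ventricles (median difference -1.1e-05). The nucleoside transporter Slc29a2 was higher (0.998 ± 0.081, limma adjusted p = 3.68e-11), and Dpyd, which starts the breakdown of uracil, was lower (-0.86 ± 0.088, adjusted p = 3.52e-09). The nucleotidases Nt5c3 (-0.79 ± 0.075, limma adjusted p = 8.18e-10) and Nt5e (-0.56 ± 0.15, adjusted p = 0.00291) were lower too. With time, Cad, the first enzyme of pyrimidine synthesis, fell in ventricles at E18.5 against E12.5 (-0.999 ± 0.23, limma adjusted p = 0.00159) and in atria (-1.25 ± 0.23, adjusted p = 0.000253). Nt5e rose in both chambers (1.06 ± 0.33 in ventricles and 1.73 ± 0.33 in atria, limma adjusted p = 0.0162 and 0.000356).

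Most germ line partners of Gtsf1 and Rec8 did not pass the filter on low values. Of the 20 other piRNA and germ cell genes with a probe set, 6 passed the filter, and 2 were higher in ventricles and none lower. Mov10l1, a helicase of the piRNA pathway with a known heart transcript, read 1057 to 2279 in ventricles and 443 to 1136 in atria (0.87 ± 0.081, limma adjusted p = 5.43e-10). Pld6, a mitochondrial nuclease of the same pathway, was higher by 0.73 ± 0.10 (limma adjusted p = 1.02e-06). The PIWI genes Piwil1, Piwil2 and Piwil4 reached at most 31.3, 138 and 51.9 on any of the 36 arrays, and the germ cell markers Ddx4 and Dazl at most 90.3 and 90.7. Of the 17 meiosis genes with a probe set, 3 passed, and 1 was called for the chambers, Sgo2a (0.15 ± 0.041, limma adjusted p = 0.00301), which also serves mitosis. Syce2, of the synaptonemal complex, fell with time in ventricles (-1.19 ± 0.21, limma adjusted p = 0.000105) and atria (-1.42 ± 0.21, adjusted p = 2.62e-05). The meiotic cohesin subunits Stag3 and Smc1b reached at most 171 and 78.1.

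All 16 mitotic cohesin genes were measured, and with time 6 fell and none rose in ventricles, while 9 fell and none rose in atria (5 without the 5 atrial arrays). Among all genes tested, 16.9% fell and 14.7% rose in ventricles and 12.8% fell and 14.6% rose in atria. Cdca5, which protects cohesion in dividing cells, fell in ventricles (-0.52 ± 0.16 log2, limma adjusted p = 0.0135) and in atria (-0.69 ± 0.16, adjusted p = 0.00194), beside -3.18 and -2.31 for Rec8.

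Of 9 measured carboxypeptidases other than Cpa1, 6 were lower in ventricles and none higher (median difference -0.19; 4 lower without the 5 atrial arrays). Cpz (-1.41 ± 0.15, limma adjusted p = 4.5e-09), Aebp1 (-1.10 ± 0.060, adjusted p = 9.27e-15) and Cpxm1 (-1.02 ± 0.060, adjusted p = 5.05e-14) led, all secreted proteins. Fibroblast and epicardial markers were lower in ventricles too, as given beside Npnt (medians of -0.62 and -0.89), and their part in these counts was not tested. Cpa3, the mast cell carboxypeptidase, rose with time in ventricles (1.198 ± 0.28, limma adjusted p = 0.00164) and in atria (1.69 ± 0.28, adjusted p = 7.52e-05). Of 16 other pancreatic acinar genes with a probe set, 6 passed the filter, 3 were higher in ventricles and none changed with time in either chamber. Prss2 was the largest (0.82 ± 0.16, limma adjusted p = 0.000132), by a probe set whose ending marks possible cross-binding. Cpb1 and Ctrb1, the carboxypeptidase B and chymotrypsinogen of the same cells, reached at most 26.8 and 36.7 on any array.

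Of 21 measured genes of the Z-disc and of partners of Ky, 12 were higher and 2 lower in ventricles (median difference 0.18). Hspb8 (0.85 ± 0.092, limma adjusted p = 1.12e-08) and Myoz2 (0.76 ± 0.082, adjusted p = 9.68e-09) led, a chaperone and a calcineurin-binding Z-disc protein. Tcap (0.55 ± 0.071, limma adjusted p = 2.15e-07) and Xirp1 (0.54 ± 0.079, adjusted p = 2.21e-06) followed. With time 9 rose and 2 fell in ventricles, and 10 rose and 2 fell in atria. Myoz2 rose by 0.75 ± 0.18 in ventricles (limma adjusted p = 0.00255) and by 1.39 ± 0.18 in atria (adjusted p = 6.5e-06).

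Of 25 measured integrins, basement membrane genes and other partners of Npnt, 13 were lower and 4 higher in ventricles (median difference -0.22). Egfl6, the closest relative of Npnt, was the furthest lower (-1.71 ± 0.18, limma adjusted p = 7.79e-09), at 37.5 to 255 in ventricles and 167 to 979 in atria. The basement membrane genes Frem2 (-1.21 ± 0.11, limma adjusted p = 3.06e-10) and Fras1 (-1.14 ± 0.090, adjusted p = 2.21e-11) followed. With time 11 fell and 1 rose in ventricles, while 5 fell and 5 rose in atria. Egfl6 fell in ventricles (-1.73 ± 0.41, limma adjusted p = 0.00186), as did Itgb8 (-1.93 ± 0.28, adjusted p = 7.77e-06). In atria the matrix protein Tnc rose (1.62 ± 0.29, limma adjusted p = 0.000177), and the integrins Itgb3 (-1.33 ± 0.27, adjusted p = 0.000636) and Itga4 (-1.25 ± 0.24, adjusted p = 0.000301) fell.

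Of 8 measured metallophosphoesterases and genes around Mpped2, 1 was higher (Cpped1, 0.27 ± 0.092, limma adjusted p = 0.0172) and 2 were lower in ventricles, Rcn1 (-0.48 ± 0.043, adjusted p = 2.98e-10) and the epicardial factor Wt1 (-0.32 ± 0.070, adjusted p = 0.000444). With time 2 of the 8 rose and 2 fell in ventricles, where Rcn1 fell (-0.84 ± 0.10, limma adjusted p = 3.68e-07), and in atria Wt1 fell (-0.58 ± 0.16, adjusted p = 0.00718) and none rose.

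**Figure D5:**
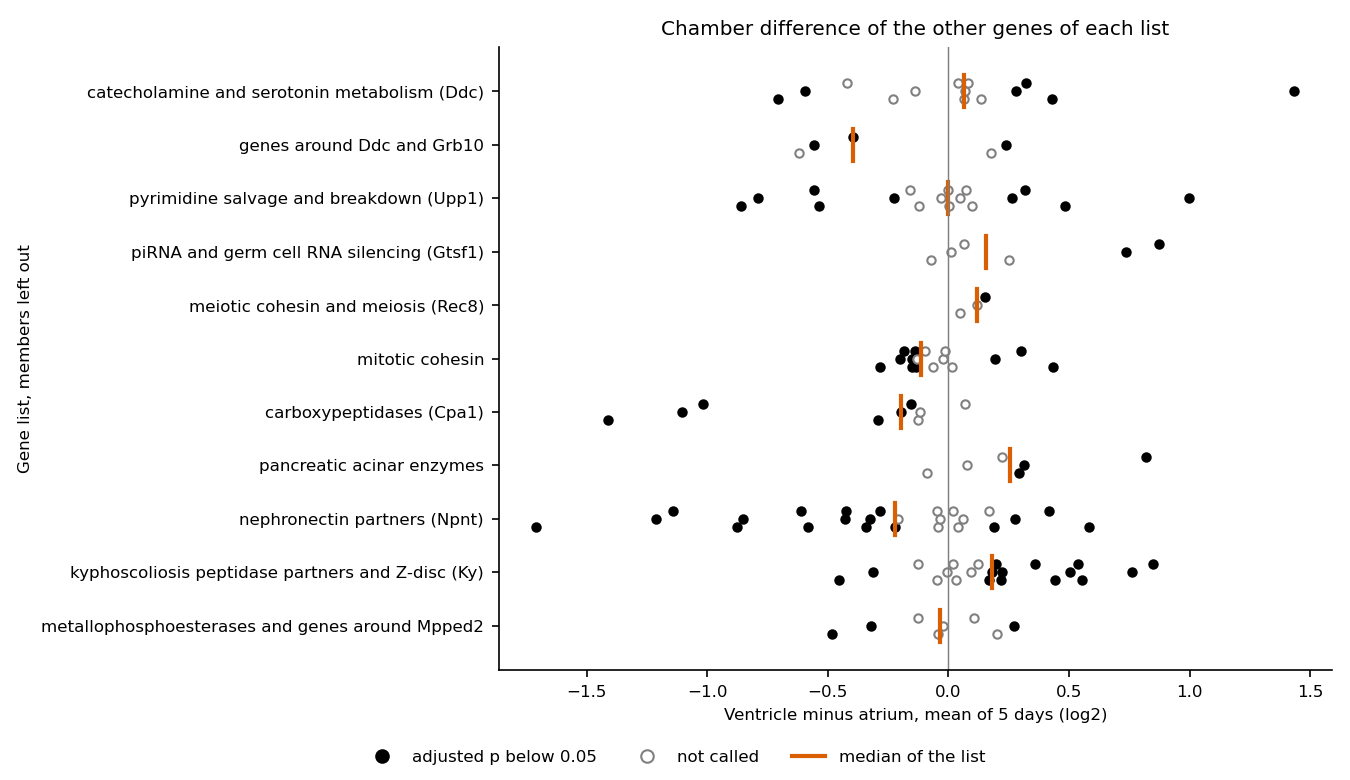
Difference between ventricle and atrium (log2, mean of 5 days) of the measured genes of each of 11 function lists, with the 8 described genes left out, filled where the limma adjusted p was below 0.05, and with the list median as a bar. The Z-disc list has 12 of 21 genes called higher and the list of Npnt partners 13 of 25 called lower.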

How the data were processed

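The 36 arrays were measured on an Affymetrix expression array, and each probe set has 1 value per array. The deposited values are linear signal intensity values; each array has a 2% trimmed mean of about 500, as the values themselves show, and the software that made them, any detection calls and the background correction are not given in the sources used here. Gene symbols came from the platform's annotation table, which gave 1 symbol to 34945 probe sets, several to 932 and none to 9160.

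Control probe sets were removed (64 of 45101), intensities were taken as log2(intensity + 17), where 17 is 10% of the median of all values (171.8), and probe sets that exceeded this median in 3 or more arrays were kept. A linear model with 1 mean per group of day and chamber was fitted over all 36 arrays with limma 3.58.1 in R 4.3.3 (empirical Bayes with an intensity trend, 24 residual degrees of freedom and 5.7 prior degrees of freedom), p-values were adjusted by Benjamini-Hochberg over all 27256 probe sets, and calls were made at 0.05. The fit was tested on simulated data. The number of arrays, 3 per group, limits the precision. A gene of a list was represented by its tested probe set with the highest mean. Up to 4 called genes per list and comparison with the largest change are named; genes named as below the filter were chosen after their values were seen.

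The members and all lists were chosen with earlier results of these data known. Other settings tried were each array centred on its median, quantile normalization, a pseudocount of 1 or 68, all probe sets kept or a filter at 583.3, no intensity trend, array weights, the arrays of the compared groups alone, the replicate number as a block, and each array left out in turn. Leaving out the 5 atrial arrays with high ventricular markers, the 2 arrays with high liver markers or the 3 with high lung markers was chosen after seeing the data. Promoter sequences are from RefSeq (GRCm38.p6).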

Additional observations from a re-analysis of the deposited data

Results flagged for a closer look

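For 10 of the listed genes chosen by the naming rule, none of them among the 8, the change between E12.5 and E18.5 differed between the chambers by limma's test of that difference (change in ventricles minus change in atria, adjusted p below 0.05), where 3.78% of all probe sets were called. The difference was -2.70 log2 for Hdc, which makes histamine (0.29 ± 0.44 in ventricles and 2.99 ± 0.44 in atria). It was -1.18 for Dpyd and 1.28 for Mov10l1, whose change was 0.81 ± 0.18 in ventricles and -0.47 ± 0.18 in atria. Of the 25 measured partners of Npnt, 8 were called lower for this difference and none higher, and among the 4 of them within the naming rule it was -1.93 for Itgb8, -1.48 for Tnc, -1.44 for Frem1 and -1.04 for Fras1. Aebp1 gave -0.83, the Z-disc protein Pdlim3 -1.68 (-0.67 ± 0.24 in ventricles and 1.01 ± 0.24 in atria) and Rcn1, from the list with genes around Mpped2, -0.74.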

How the results depend on the processing

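Of the tests of the 8 genes under other settings, 763 kept their call or lack of one, 63 lost the call and 38 gained it. A call in the opposite direction came 0 times, and the F tests have no direction. Values that were not called could change sign. In atrium E18.5 against E12.5, Ddc 1426215_at ranged from -0.69 to 0.51 and Gtsf1 1441836_x_at from -1.08 to 0.51. Of the counts of called genes per list, 1588 stayed within 1.5 times and 128 did not. With median centring, E11.5 against E10.5 called 123 probe sets in place of 315, and 0 of the 8 genes' in place of 2, and the difference between chambers in their E18.5 against E12.5 change called 425 in place of 1030. With the filter at 583.3, which tests fewer probe sets, ventricle against atrium called 7319 in place of 11570, and the 8 genes had 3 calls in place of 5 in atrium E18.5 against E12.5 and 1 at E11.5. Array weights gave 12642 calls in place of 6610 in the atrial comparison (9 of the 8 genes' probe sets), 2417 at E11.5, 4733 for the chamber difference in change and 10604 in place of 4738 over the 5 atrial days (11 in place of 7). With the spread from the compared arrays alone the counts were 4051 (2 of the 8 genes'), 2218 (6), 407 and 1417 (2) in the same order. With the replicate block, the chamber difference in change gave 242. Arrays of the same number within a day were compared by their deviations from the group means. Of 15 such pairs 1 had a correlation above 0.1 (range -0.34 to 0.16), and 3 of 15 ventricular arrays matched their own number best. With 3 arrays per group this cannot exclude that arrays of 1 number share an origin. Without the 5 atrial arrays with high ventricular markers the 8 genes had 3 calls in the atrial comparison and 3 over the atrial days, where 2675 probe sets were called in all. Without the 2 arrays with high liver markers they had 1 call in the atrial comparison, and without the 3 with high lung markers the chamber difference in change gave 490. The cause of these shifts was not tested.

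Leaving out single arrays gave 10848 to 11729 calls in ventricle against atrium, 5774 to 7769 in place of 7835 in ventricle E18.5 against E12.5, 3817 to 7409 in the atrial comparison (1 to 5 of the 8 genes'), 61 to 214 at E11.5 (0 to 1), 452 to 2014 for the chamber difference in change and 2970 to 5902 over the atrial days (5 to 10). Of the described values, 5 moved beyond the spread between arrays: for ventricle E18.5 against E12.5, Rec8 with a pseudocount of 1 (-4.14) and 68 (-2.03), and with 68 Cpa1 (2.06) and the 2 Npnt probe sets 1452106_at and 1452107_s_at (-2.95 and -2.15). The mean chamber differences without the 5 atrial arrays were not counted as moved. Some of them still shifted by more than their SE, as for Ddc (2.71 ± 0.24 to 3.40) and Upp1 (2.27 ± 0.19 to 2.81), while those of Rec8 and Cpa1 did not. Signals near the bottom of the scale, such as Rec8 at E18.5, Ky in atria and the Ky and Npnt probe sets below the filter, give only a rough fold.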
